A study of Solanum lycopersicum with 14 samples.

Results

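WRKY transcription factors were followed through the development and ripening of tomato (Solanum lycopersicum) fruit. A gene was counted as a WRKY gene when the Arabidopsis symbol paired with it by the authors began with WRKY or ATWRKY, and it was kept when at least 1 of the 14 libraries held 10 or more of its reads. Of the 26397 genes in the count table, 72 carried such a symbol and 55 were kept, under 30 different symbols. Since 17 symbols were shared by 2 or more tomato genes, each gene is named here by its symbol and its Solyc identifier, whose first digits give the chromosome. The 55 genes lay on 11 of the 12 chromosomes, with 9 on chromosome 5, 8 on chromosome 2 and none on chromosome 11.

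WRKY proteins are a large plant family named for a conserved stretch of amino acids that is followed by a zinc finger. They bind the W-box, a short DNA element found in the promoters of many defence genes and of WRKY genes themselves, and can activate or repress transcription. In Arabidopsis the family is best known for responses to pathogens, wounding and salicylic acid and for the control of leaf senescence, and many members are switched on within minutes to hours of a stimulus. Roles given below are those of the Arabidopsis genes unless tomato is named.

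Fruits of the cultivars AC (Ailsa Craig) and HG6-61 were picked from 5 plants of each cultivar every 7 days from 7 to 49 days after flowering (DAF), 7 stages in all, and the pericarp of each stage was mixed before RNA extraction. Both cultivars were untreated, were grown in the same greenhouse, and differ in how fast they mature, AC being the earlier. The labels place 7 to 35 DAF under mature green, 42 DAF under breaker and 49 DAF under ripening. There was 1 library for each cultivar and stage, so a difference between cultivars at a stage had no replicate, and the test between stages used the AC and HG6-61 libraries of a stage as its 2 replicates.

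The libraries held between 1461817 reads (HG6-61 at 35 DAF) and 6274456 reads (HG6-61 at 21 DAF) in genes. Some marker genes went against the labels. The seed list held 20 genes found by symbol, mainly storage proteins and oleosins, with 3 genes of other function caught by the same symbols. Together the 20 genes were at high levels at 21 and 28 DAF in these libraries, which the authors describe as pericarp. Their summed RPKM was 73.2 (AC) and 60.4 (HG6-61) at 7 DAF, reached 19060.1 and 4511 by 21 DAF and 18766 and 13646 by 28 DAF, and was back at 832 and 582 by 49 DAF. RPKM is the read count of a gene scaled to its length in kilobases and to the size of the library. At 21 and 28 DAF all 20 of the seed genes had reads in AC and 19 of 20 in HG6-61. Whether seed tissue was taken with the pericarp was not tested. Ripening genes (PSY1, RIN, E8, PG2a and E4) summed to 10199.6 RPKM in AC at 35 DAF, a stage labelled mature green, and to 223 in HG6-61 at 35 DAF. They reached their highest sum in HG6-61, 7095, at 42 DAF. Light-harvesting genes of green fruit (32 genes) summed to 3149 RPKM in AC and 2151 in HG6-61 at 7 DAF and to 75.9 and 62.8 at 49 DAF. Cuticle and epidermis genes (38 genes) summed to between 426 and 3988 RPKM over the 14 libraries. In bulk pericarp, fewer cells of a type and less RNA per cell cannot be told apart.

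WRKY transcripts were low in young fruit and rose steeply between 14 and 28 DAF. Summed over the 55 genes, RPKM was 371 (AC) and 309.6 (HG6-61) at 7 DAF and 449.8 and 661 at 14 DAF. At 21 DAF the sums were 1629 and 1596, and at 28 DAF they were 2447 and 2037. The sum then dropped to 854 in AC and 1442 in HG6-61 at 35 DAF, was 1096 and 1290.2 at 42 DAF, and was 2486 and 1659 at 49 DAF. Both cultivars therefore had a high sum at 28 DAF, AC had a second one of the same size at 49 DAF, and the trough between them was deeper in AC. The number of WRKY genes at 10 RPKM or more went from 11 in AC and 8 in HG6-61 at 7 DAF to 30 and 26 at 28 DAF, 16 and 23 at 35 DAF, and 26 in each at 49 DAF.

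**Figure D1:**
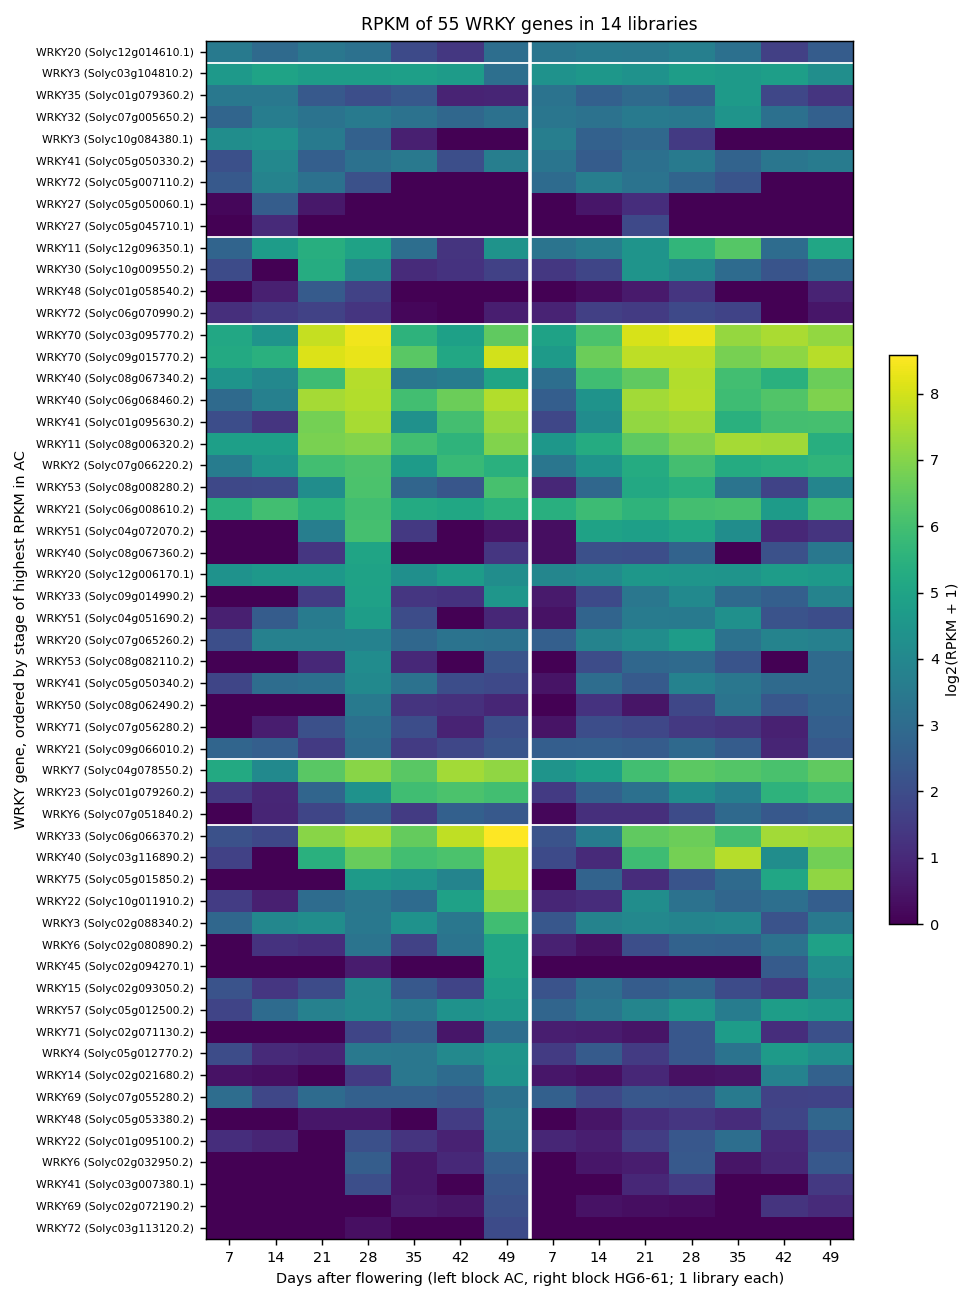
Level of the 55 WRKY genes in the 14 libraries as log2(RPKM + 1), with 1 row per gene, the 7 AC stages on the left and the 7 HG6-61 stages on the right. Rows are grouped by the stage of highest RPKM in AC, and most rows are darkest (lowest) at 7 and 14 DAF, with the 20 genes of the 28 DAF group and the 19 of the 49 DAF group making up most of the map.

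Grouped by the stage of highest RPKM, the genes fell mostly into a 28 DAF and a 49 DAF group in AC. In stage order from 7 to 49 DAF, the AC groups held 1, 8, 4, 20, 0, 3 and 19 genes. The groups of HG6-61 held 1, 1, 5, 17, 12, 7 and 11 genes, and the remaining gene, WRKY72 (Solyc03g113120.2), was listed at 0 in all 7 HG6-61 libraries. Among all 19923 genes with at least 10 reads in a library, 28.6% in AC and 27.6% in HG6-61 were highest at 7 DAF, 9.41% and 11.9% at 28 DAF, 7.52% and 12.3% at 35 DAF, and 13.7% and 13.5% at 49 DAF. The stage of highest RPKM was the same in both cultivars for 19 of the 55 WRKY genes (34.5%), against 44.1% of all genes. It was a neighbouring stage for another 17, and the share of all genes for neighbouring stages is not given here. Of the 19 with the same stage, 12 were highest at 28 DAF and 5 at 49 DAF.

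The 28 DAF group includes several abundant genes. WRKY70, which in Arabidopsis promotes salicylic acid responses and holds back senescence, had 2 abundant copies. The RPKM of WRKY70 (Solyc03g095770.2) in stage order from 7 to 49 DAF was 34.5, 20.6, 227, 332, 46.3, 28.7 and 88.5 in AC and 29.6, 70.8, 265, 311, 148, 181 and 144 in HG6-61. For WRKY70 (Solyc09g015770.2) the values were 36.2, 42.8, 276, 314, 82.4, 34.1 and 253 in AC and 24.4, 99.3, 209.8, 209.9, 113, 139 and 201 in HG6-61. Both copies were high in all 4 libraries of 21 and 28 DAF, and the copies parted at 49 DAF in AC, where the copy on chromosome 9 returned to a high level and that on chromosome 3 did not.

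WRKY40, a pathogen-induced repressor of basal defence in Arabidopsis, had 4 copies above the minimum of reads. WRKY40 (Solyc06g068460.2) was at 6.90, 12.3, 169.5, 194, 61.9, 100.02 and 192 RPKM in AC and at 4.93, 20.4, 168, 196, 59.3, 74.4 and 119.9 in HG6-61. WRKY40 (Solyc08g067340.2) was at 20.6, 15.0, 59.2, 198, 9.53, 11.2 and 32.4 in AC and at 7.55, 61.3, 87.7, 193, 62.3, 42.6 and 98.9 in HG6-61. WRKY40 (Solyc03g116890.2) was at 2.16, 0, 42.9, 94.9, 61.6, 69.2 and 188 in AC and at 2.83, 1.04, 59.3, 111, 198, 17.2 and 106 in HG6-61. The first of these copies had nearly the same course in both cultivars up to 35 DAF, the second was a single high stage at 28 DAF in AC and less sharply so in HG6-61, and the third had its highest library in AC at 49 DAF but in HG6-61 at 35 DAF. The fourth, WRKY40 (Solyc08g067360.2), numbered close to the second copy on chromosome 8, had 125 reads in AC at 28 DAF (31.5 RPKM) and at most 20 reads in any other library.

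Further abundant genes rose early. WRKY41 (Solyc01g095630.2), whose Arabidopsis gene acts in defence and seed dormancy, was at 3.08, 1.49, 109, 176, 19.2, 63.2 and 151 RPKM in AC and at 2.53, 16.9, 145, 162, 42.3, 64.0 and 64.5 in HG6-61. WRKY53 (Solyc08g008280.2), a promoter of leaf senescence, was at 2.59, 2.70, 17.3, 69.3, 5.94, 3.91 and 67.3 in AC and at 0.94, 6.27, 35.4, 42.4, 8.84, 2.31 and 14.1 in HG6-61. WRKY51 (Solyc04g072070.2), which in Arabidopsis takes part in the repression of jasmonate signalling by salicylic acid, was at 0, 0, 11.6, 65.1, 1.68, 0 and 0.38 in AC and at 0.26, 29.6, 28.0, 32.7, 17.7, 0.96 and 1.46 in HG6-61. Of these, WRKY41 and WRKY53 were high again in AC at 49 DAF, while WRKY51 was all but absent from 42 DAF on in both cultivars. WRKY2 (Solyc07g066220.2), which acts in seed germination and pollen development, was at 11.1, 21.5, 62.5, 71.4, 25.1, 54.5 and 42.6 RPKM in AC and 9.43, 20.6, 38.2, 63.1, 37.7, 41.4 and 47.6 in HG6-61. Its 2 libraries of 7 DAF were below all others.

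WRKY7, WRKY11 and WRKY21 belong to a subgroup whose Arabidopsis proteins bind calmodulin. WRKY11 (Solyc08g006320.2) was at 27.6, 27.9, 115, 126, 62.5, 46.3 and 123 RPKM in AC and at 22.4, 37.7, 86.0, 119.6, 170.2, 162 and 40.5 in HG6-61. WRKY11 (Solyc12g096350.1) was at 5.72, 25.5, 41.0, 29.8, 7.65, 1.47 and 20.3 in AC and at 8.81, 11.5, 20.6, 49.0, 78.8, 7.25 and 32.7 in HG6-61. Both copies were highest at 35 DAF in HG6-61 and had passed their highest level by then in AC. WRKY7 (Solyc04g078550.2) was at 36.4, 15.7, 83.1, 131, 81.6, 166 and 141 in AC and at 20.9, 28.0, 62.6, 84.0, 76.8, 67.9 and 88.9 in HG6-61, and stayed above 60 RPKM in every library from 21 DAF on. WRKY21 (Solyc06g008610.2) was at 42.6, 62.0, 43.8, 62.8, 37.3, 33.4 and 43.4 in AC and at 42.1, 57.3, 47.4, 63.6, 66.1, 25.1 and 57.8 in HG6-61. It was the abundant gene that varied least, and its lowest value was at 42 DAF in both cultivars.

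**Figure D2:**
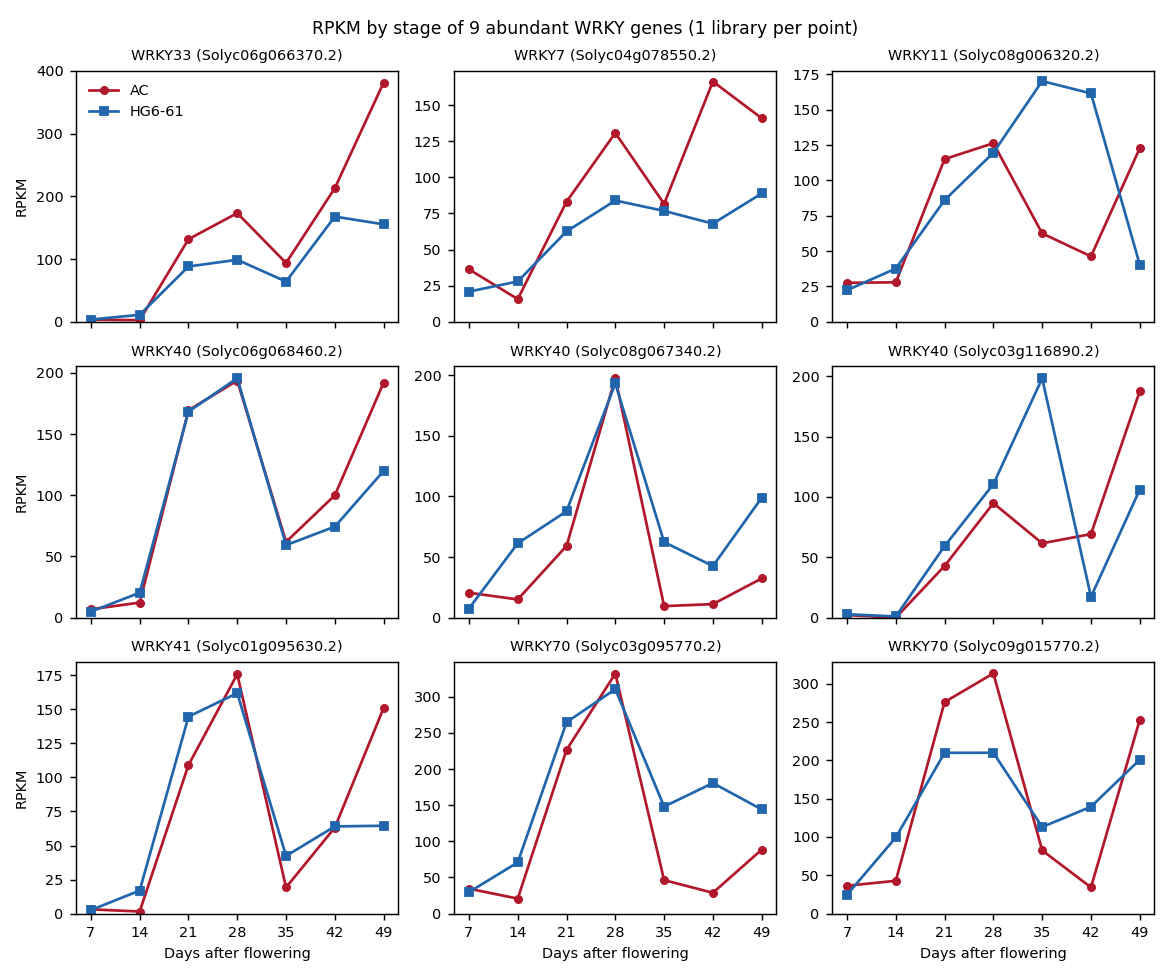
RPKM against days after flowering for 9 abundant WRKY genes, 1 panel per gene, with AC as circles and HG6-61 as squares and 1 library per point. WRKY40 (Solyc06g068460.2) runs together in the cultivars up to 35 DAF, whereas WRKY11 (Solyc08g006320.2) and WRKY40 (Solyc03g116890.2) are highest at 35 DAF in HG6-61, at 170.2 and 198 RPKM, and were at 62.5 and 61.6 in AC.

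The stages were compared with 7 DAF by edgeR's quasi-likelihood test over the counts of all 18082 genes that passed its filter, with stage and cultivar in the model. Calls needed an adjusted p (Benjamini-Hochberg) under 0.01 together with an absolute log2 fold change over 2, the limits the authors used. Of the 55 WRKY genes, 49 passed the filter, and since a gene could pass through a single library in which it was high, counts and medians over the 49 are descriptions. WRKY genes were called higher from 21 DAF on, and only 2 of them were called lower at any stage. The share of all genes called lower is given below for 35, 42 and 49 DAF, and is not given here for 14, 21 and 28 DAF. At 14 DAF none of the 49 was called higher than at 7 DAF by edgeR or DESeq2 (10 had an unadjusted p under 0.05), beside 0.293% of all genes tested. At 21 DAF 7 were called higher, beside 2.7% of all genes, and at 28 DAF 17 were, beside 5.08%. At 35 DAF 8 were called higher, beside 6.89%, at 42 DAF 12, beside 7.88%, and at 49 DAF 19, beside 8.83%. WRKY3 (Solyc10g084380.1) was the 1 WRKY gene called lower at 35 and at 49 DAF, where 8.33% and 13.8% of all genes were, and at 42 DAF it was called lower together with WRKY20 (Solyc12g014610.1), beside 13.1%. The counts for 14, 21, 35 and 42 DAF were added after the data had been seen. Across stages without a limit on the fold, 24 of 49 were called, beside 32.9% of all genes. The median log2 fold change of the 49 was 2.79 at 28 DAF and 2.72 at 49 DAF (2.77 and 2.70 with genes at 0 reads in a group set to their bound), while the median over all genes tested was -0.02 and -0.18.

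The 17 genes called higher at 28 than at 7 DAF included several abundant ones. WRKY40 (Solyc06g068460.2) rose by a log2 fold change of 5.10 ± 0.42 (SE, 2 libraries per stage; edgeR adjusted p = 5.1e-05), and WRKY41 (Solyc01g095630.2) by 6.0 ± 0.90 (adjusted p = 9.9e-04). WRKY33 (Solyc06g066370.2) rose by 5.23 ± 0.70 (adjusted p = 5.3e-04) and WRKY53 (Solyc08g008280.2) by 5.22 ± 0.87 (adjusted p = 0.0017). The copies of WRKY70 rose by 3.42 ± 0.64 on chromosome 3 and 3.18 ± 0.61 on chromosome 9 (adjusted p = 0.0031 and 0.0035), and the difference between the copies was not tested. WRKY2 rose by 2.77 ± 0.32 (adjusted p = 2.3e-04). The calls included the 3 copies of WRKY6, a gene of senescence and phosphate supply in Arabidopsis, although none of the 3 exceeded 10 RPKM at 28 DAF. WRKY11 (Solyc08g006320.2) and WRKY7 did not pass, with 2.36 ± 0.66 (adjusted p = 0.021) and 1.97 ± 0.43 (adjusted p = 0.0066, below the limit on the fold). WRKY21 did not pass either, at 0.63 ± 0.29 (adjusted p = 0.14).

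Many of these calls were lost when a single library was left out. With 1 of the 2 libraries of a compared stage gone, a loss need not mean that the 2 libraries differed. The count at 28 DAF was 6 without AC at 28 DAF, 3 without AC at 7 DAF and 4 without HG6-61 at 7 DAF. Only WRKY2 and WRKY40 (Solyc06g068460.2) were called whichever of the 14 libraries was left out. WRKY33 (Solyc06g066370.2) was lost without AC at 7 DAF, and WRKY40 (Solyc03g116890.2) and WRKY41 (Solyc01g095630.2) without either 7 DAF library. WRKY40 (Solyc08g067340.2) was lost without AC at 28 DAF or HG6-61 at 7 DAF, WRKY57 without either 28 DAF library or AC at 7 DAF, and WRKY20 (Solyc07g065260.2) without HG6-61 at 28 DAF or either 7 DAF library. WRKY6 (Solyc02g080890.2) and WRKY41 (Solyc05g050340.2) were lost without any of these 4 libraries, and WRKY6 (Solyc02g032950.2) also without either 42 DAF library. The other 6, WRKY6 (Solyc07g051840.2), WRKY33 (Solyc09g014990.2), WRKY51 (Solyc04g072070.2), WRKY53 (Solyc08g008280.2) and both copies of WRKY70, were lost without AC at 28 DAF or either 7 DAF library. The highest adjusted p of a lost call was between 0.013 and 0.083, and DESeq2 gave an adjusted p under 0.01 for all 17. At 21 DAF the count of 7 was 2 without AC at 21 DAF, 3 without HG6-61 at 21 DAF and 1 without either 7 DAF library. The seed genes rose over the same stages, with 10 of the 15 tested called higher at 28 DAF, beside 5.08% of all genes. Their median log2 fold change was 8.65, and their part in the WRKY values was not tested.

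**Figure D3:**
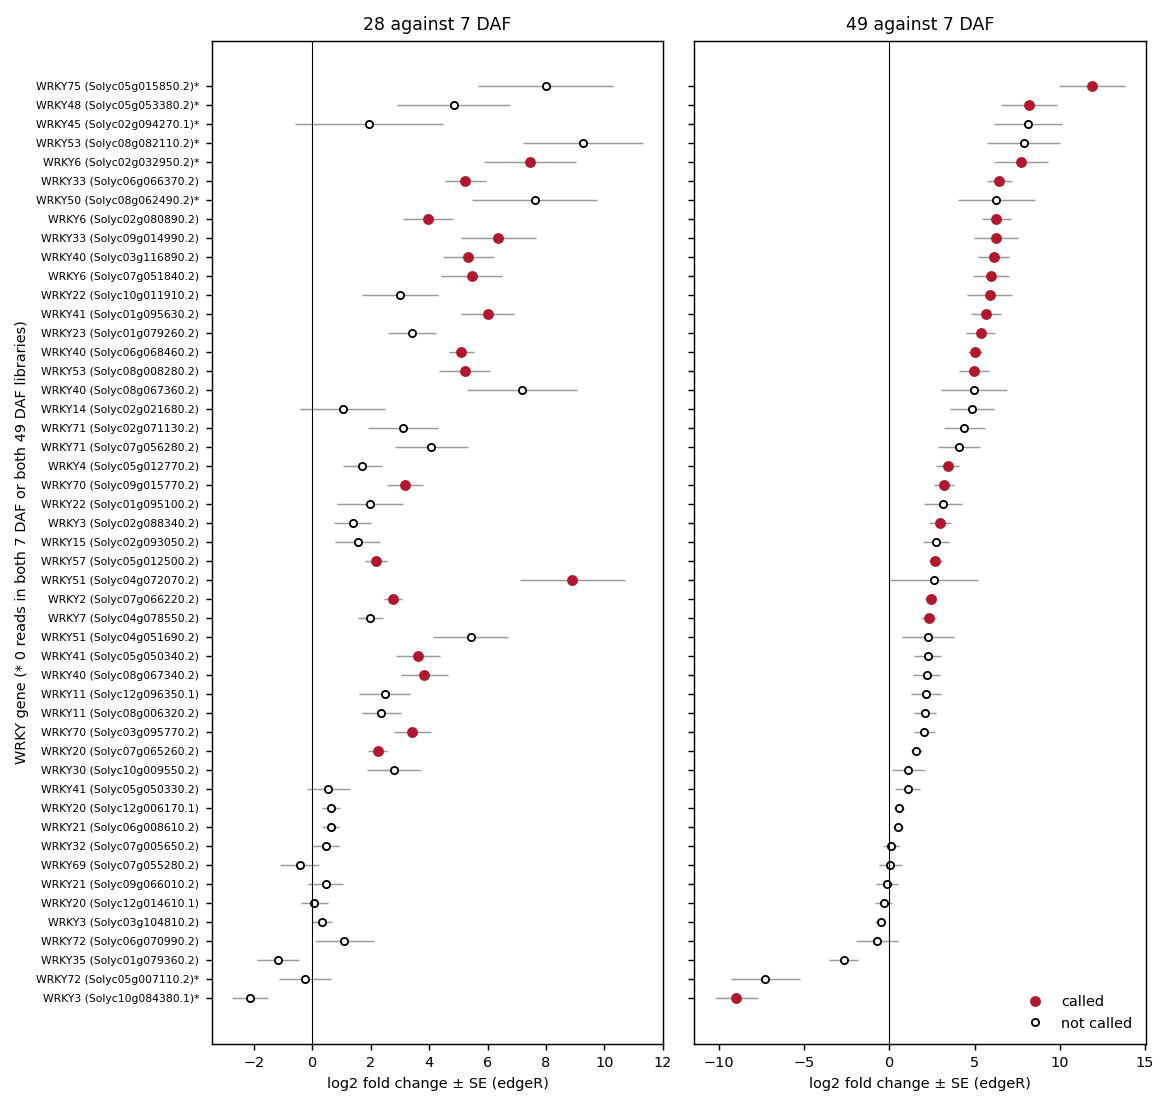
Log2 fold change from edgeR for the 49 tested WRKY genes at 28 DAF (left) and 49 DAF (right) against 7 DAF. The SE was derived from the fold change and the F statistic of the test. Genes are ordered by the value at 49 DAF, with called genes filled. Filled points number 17 on the left and 20 on the right, and WRKY3 (Solyc10g084380.1) is the 1 filled point below 0; the fold change of genes with an asterisk, which had 0 reads in both libraries of a stage, depends on the prior count.

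Between 28 and 35 DAF a larger share of the WRKY genes dropped in AC than in HG6-61. In AC 30 of the 49 WRKY genes that could be compared (10 reads or more in either library) were at least 2-fold lower at 35 than at 28 DAF in RPKM, beside 32.6% of all genes, and 2 were at least 2-fold higher (WRKY14 and WRKY23), beside 8.83%. In HG6-61 11 of 44 were lower, beside 31.3%, and 7 were higher, beside 9.14%. The share that dropped was thus above that of all genes in AC (61.2% against 32.6%). In HG6-61 it was near that of all genes (25% against 31.3%). Each rested on 1 library per stage. No WRKY gene was called lower at 35 than at 28 DAF over both cultivars by edgeR, where 0.0221% of all genes were. There were 13 with an unadjusted p under 0.05, and DESeq2 called 1.

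Several genes abundant at 28 DAF were lower at 35 DAF by more in AC than in HG6-61. WRKY51 (Solyc04g072070.2) was 38.7-fold higher at 28 than at 35 DAF in AC (95% exact binomial interval 18.5 to 97.1, counting error only) and 1.85-fold higher in HG6-61 (1.25 to 3.04). WRKY40 (Solyc08g067340.2) was 20.7-fold higher in AC (15.9 to 28.4) and 3.10-fold in HG6-61 (2.58 to 3.79). WRKY53 (Solyc08g008280.2) was 11.7-fold higher in AC (8.47 to 16.5) and 4.80-fold in HG6-61 (3.15 to 7.91). For each of these the intervals of the cultivars did not overlap. WRKY41 (Solyc01g095630.2) was 9.18-fold higher in AC and 3.83-fold in HG6-61, and WRKY70 (Solyc03g095770.2) 7.18-fold and 2.10-fold. The drop of WRKY40 (Solyc06g068460.2) was 3.13-fold in AC (2.81 to 3.48) and 3.30-fold in HG6-61 (2.81 to 3.92), with overlapping intervals.

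At 35 DAF itself 23 of 41 WRKY genes differed at least 2-fold between the cultivars, beside 30.4% of all genes. HG6-61 was higher for 19 of them, beside 16.3%, and AC for 4, beside 14.1%. WRKY11 (Solyc12g096350.1) was 10.3-fold higher in HG6-61 (7.06 to 15.4), WRKY40 (Solyc08g067340.2) 6.54-fold (4.72 to 9.33) and WRKY40 (Solyc03g116890.2) 3.22-fold (2.81 to 3.69). WRKY35 (Solyc01g079360.2) and WRKY71 (Solyc02g071130.2), a gene of shoot branching in Arabidopsis, had a single high library each, HG6-61 at 35 DAF, with 24.3 and 25.7 RPKM on 48 and 47 reads against 4.18 and 4.61 RPKM in AC. The 4 genes higher in AC were WRKY14, WRKY23, WRKY71 (Solyc07g056280.2) and WRKY75. Of these WRKY23 was the most abundant, 5.02-fold higher in AC (3.33 to 7.84). WRKY40 (Solyc06g068460.2) was level, at 0.957 of AC (0.793 to 1.15). HG6-61 at 35 DAF was the shallowest library, and with a minimum of 50 reads in place of 10 the count of 23 fell to 10. That minimum also left fewer genes to compare, and the share of all genes under it is not given here. The ripening genes stood apart in the same 2 libraries, PSY1 at 3079.5 RPKM in AC and 42.2 in HG6-61 and RIN at 447 and 6.5, and their part in the WRKY difference was not tested.

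The genes that were highest late formed a second set. WRKY33 (Solyc06g066370.2), which in Arabidopsis is required for resistance to grey mould and is a target of the kinases MPK3 and MPK6, had the highest level of any WRKY gene. Its RPKM was 3.40, 2.67, 132, 173, 93.8, 213 and 382 in AC and 3.63, 11.2, 88.3, 98.9, 64.2, 168 and 155 in HG6-61. All libraries from 21 DAF on were above those of 7 and 14 DAF, and in HG6-61 there was no further rise from 42 to 49 DAF. It rose by a log2 fold change of 6.44 ± 0.74 between 7 and 49 DAF (edgeR adjusted p = 9.6e-05) and kept its call whichever library was left out.

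WRKY75, a gene of phosphate starvation and senescence in Arabidopsis, was highest at 49 DAF in both cultivars. WRKY75 (Solyc05g015850.2) had no reads at 7 DAF in either cultivar. Its RPKM was 0, 0, 0, 24.3, 20.9, 13.6 and 188 in AC and 0, 5.69, 1.13, 3.64, 6.77, 32.9 and 142 in HG6-61, so that both libraries of 49 DAF were more than 4-fold above all the others. On 684 reads at 49 DAF against none at 7 DAF, it was at least 281-fold higher at 49 DAF, with the floor set at 3 reads over the 2 libraries of 7 DAF (edgeR adjusted p = 9.1e-04). WRKY48 (Solyc05g053380.2), a stress-induced repressor of basal defence, was at 0 to 2.46 RPKM up to 42 DAF and at 9.74 in AC and 6.19 in HG6-61 at 49 DAF, at least 17.7-fold higher than at 7 DAF (adjusted p = 0.0030). WRKY6 (Solyc02g032950.2) was at least 14.4-fold higher at 49 DAF (adjusted p = 0.0031), at 5.05 and 4.11 RPKM, and had reached 4.74 and 4.31 RPKM at 28 DAF before falling under 1 RPKM at 35 and 42 DAF in both cultivars. WRKY45 (Solyc02g094270.1), another gene of phosphate supply and senescence, was seen at 49 DAF with 35 reads in AC and 15 in HG6-61 and had at most 4 reads in any earlier library. Its rise of at least 20.5-fold was not called (adjusted p = 0.014), and it is named here after its values were seen.

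WRKY23 (Solyc01g079260.2), an auxin-responsive gene linked to flavonol synthesis in Arabidopsis, rose earlier in AC than in HG6-61. Its RPKM was 1.66, 0.91, 5.98, 19.7, 60.8, 69.3 and 62.0 in AC and 1.72, 5.29, 8.08, 17.4, 12.1, 45.2 and 59.1 in HG6-61. The cultivars were close at 28 and 49 DAF, and AC had reached its upper level by 35 DAF and HG6-61 by 42 DAF, the stages at which the ripening genes had their highest sum in each. It was called higher at 35, 42 and 49 DAF, by a log2 fold change of 5.36 ± 0.83 at 49 DAF (adjusted p = 5.3e-04). WRKY22 (Solyc10g011910.2), which acts in the response to bacterial flagellin and in dark-induced senescence, was at 1.90, 0.69, 7.24, 9.57, 7.02, 29.0 and 139.8 RPKM in AC and at 0.88, 1.14, 17.4, 8.49, 6.13, 7.83 and 4.98 in HG6-61. Its late rise was seen in AC alone, where it was 28.1-fold higher at 49 DAF than in HG6-61 (15.9 to 54.6). It was called at 49 DAF (log2 fold change 5.88 ± 1.31, adjusted p = 0.0041), and without AC at 49 DAF its adjusted p was 0.077.

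The 3 copies of WRKY3, a gene of resistance to necrotrophic fungi in Arabidopsis, went in different directions. WRKY3 (Solyc02g088340.2) was at 6.23, 14.6, 17.6, 9.89, 19.6, 9.47 and 61.1 RPKM in AC and at 4.08, 13.3, 14.9, 13.8, 14.5, 3.56 and 10.2 in HG6-61. WRKY3 (Solyc03g104810.2) was at 23.6, 30.7, 26.1, 26.2, 27.4, 25.4 and 7.84 in AC and at 19.9, 22.5, 19.7, 26.1, 24.5, 26.7 and 17.8 in HG6-61. WRKY3 (Solyc10g084380.1) was at 17.3, 19.2, 10.3, 5.38, 0.70, 0 and 0 in AC and at 11.6, 5.37, 6.41, 1.73, 0, 0 and 0 in HG6-61. The first was called higher at 49 DAF (2.97 ± 0.65, adjusted p = 0.0038; 0.047 without AC at 49 DAF, the library in which it was high), the second was level until 42 DAF and was not called (-0.51 ± 0.35, adjusted p = 0.25), and the third was called lower. The third copy was at least 27.8-fold lower at 49 than at 7 DAF (103 reads against none in 2 libraries, edgeR adjusted p = 6.0e-04). WRKY72 (Solyc05g007110.2), whose gene contributes to basal immunity in tomato and Arabidopsis, also had no reads at 42 and 49 DAF in either cultivar and was at least 11.6-fold lower at 49 DAF, which was not called (adjusted p = 0.017).

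**Figure D4:**
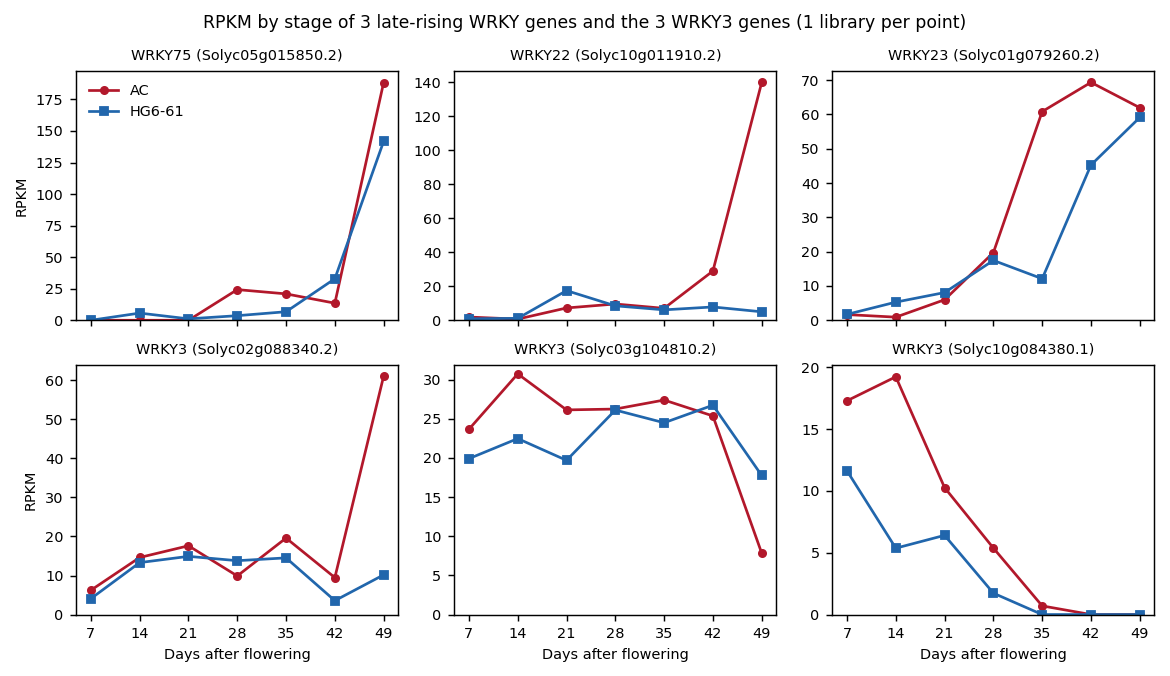
RPKM against days after flowering for WRKY75, WRKY22 and WRKY23 (top) and the 3 copies of WRKY3 (bottom), with AC as circles and HG6-61 as squares and 1 library per point. WRKY75 is highest at 49 DAF in both cultivars, WRKY22 and WRKY3 (Solyc02g088340.2) are highest at 49 DAF in AC, WRKY23 reaches its upper level 1 stage earlier in AC, and WRKY3 (Solyc10g084380.1) declines to 0.

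Of the 20 calls at 49 DAF, 8 were kept whichever library was left out: WRKY2, WRKY23, WRKY33 (Solyc06g066370.2), WRKY57, WRKY6 (Solyc02g080890.2), WRKY40 (Solyc03g116890.2), WRKY40 (Solyc06g068460.2) and the fall of WRKY3 (Solyc10g084380.1). WRKY41 (Solyc01g095630.2), WRKY53 (Solyc08g008280.2) and WRKY75 were lost without HG6-61 at 7 DAF, and WRKY7 and WRKY6 (Solyc07g051840.2) without either 7 DAF library. The other 7, WRKY3 (Solyc02g088340.2), WRKY4, WRKY6 (Solyc02g032950.2), WRKY22 (Solyc10g011910.2), WRKY33 (Solyc09g014990.2), WRKY48 (Solyc05g053380.2) and WRKY70 (Solyc09g015770.2), were lost without AC at 49 DAF or either 7 DAF library. The count of 19 rises was 12 without AC at 49 DAF, 11 without AC at 7 DAF and 7 without HG6-61 at 7 DAF, and DESeq2 gave an adjusted p under 0.01 for all 20 calls. The count of falls was 2 without either or both of the 35 DAF libraries. At 35 DAF the count of 8 rises was 2 without either 7 DAF library, 5 without HG6-61 at 35 DAF and 13 without either 49 DAF library, and at 42 DAF that of 12 was 5 without AC at 7 DAF and 6 without HG6-61 at 7 DAF. The count across stages was 14 without HG6-61 at 7 DAF.

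From 42 to 49 DAF, the stages labelled breaker and ripening, WRKY transcripts rose again in more genes than they fell. Ripening genes of AC had their highest sum before both stages, 10199.6 RPKM at 35 DAF. Their sum was down to 4006 by 42 DAF and 2614 by 49 DAF. For HG6-61 it fell from 7095 to 3995 over the same step. In AC 27 of 43 WRKY genes were at least 2-fold higher at 49 than at 42 DAF, beside 20.5% of all genes, and 1, WRKY3 (Solyc03g104810.2), was lower, beside 16.1%. In HG6-61 18 of 40 were higher, beside 16.5%, and 2 were lower, WRKY11 (Solyc08g006320.2) and WRKY14, beside 16.6%. No WRKY gene was called higher over both cultivars by edgeR, where 0.293% of all genes were, 18 had an unadjusted p under 0.05, and DESeq2 called 2. At 49 DAF the level was higher in AC for most genes that differed: WRKY33 (Solyc06g066370.2) 2.45-fold (2.25 to 2.68), WRKY53 (Solyc08g008280.2) 4.76-fold (3.5 to 6.6) and WRKY3 (Solyc02g088340.2) 6.01-fold (4.31 to 8.66). WRKY75 was 1.33-fold higher in AC (1.13 to 1.56), and WRKY40 (Solyc08g067340.2) was 3.06-fold higher in HG6-61 (2.46 to 3.88).

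From 14 DAF on, the cultivar in which more WRKY genes were higher was not the same at every stage. Each comparison was of 1 library with 1 library. At 7 DAF 2 of 28 WRKY genes were at least 2-fold higher in HG6-61 and 1 was lower, near the 5.69% and 4.75% of all genes. At 14 DAF 16 of 40 were higher and 4 lower in HG6-61, beside 11% and 6.04%, and at 21 DAF 12 of 45 were higher and 2 lower, beside 8.78% and 7.61%. At 28 DAF the balance lay the other way, with none of 49 higher and 10 lower in HG6-61, beside 10.2% and 10.1%. At 42 DAF 10 of 30 were higher and 4 lower, beside 16.5% and 7.89%, and at 49 DAF 6 of 46 were higher and 14 lower, beside 19.1% and 16.3%. Among the 16 genes higher in HG6-61 at 14 DAF, WRKY41 (Solyc01g095630.2) was 11.3-fold higher (5.01 to 31.2), WRKY40 (Solyc08g067340.2) 4.08-fold (3.0 to 5.62) and WRKY70 (Solyc03g095770.2) 3.43-fold (2.57 to 4.67). WRKY51 (Solyc04g072070.2) had 127 reads in HG6-61 at 14 DAF and none in AC. Over all stages together no WRKY gene was called between the cultivars by edgeR or DESeq2 (6 had an unadjusted p under 0.05), beside 0.238% of all genes.

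The remaining genes were lower. Of the 55, 18 reached 50 RPKM in some library, and 13 stayed under 10 RPKM in every one. The AC groups of 7, 14 and 21 DAF held no gene above 41.0 RPKM at its highest stage in AC, and their members apart from WRKY11 included WRKY20 (Solyc12g014610.1) at 10.2 RPKM, WRKY3 (Solyc03g104810.2) at 30.7, WRKY41 (Solyc05g050330.2) at 15.2 and WRKY30 (Solyc10g009550.2), a gene of oxidative stress responses, at 38.8. WRKY30 was high at 21 DAF in both cultivars (20.6 RPKM in HG6-61) and at most 7.07 from 35 DAF on. WRKY33 (Solyc09g014990.2) was far less abundant than the other copy, at 29.0 and 15.8 RPKM at 28 DAF, and had the deeper trough in AC, with 12 and 5 reads at 35 and 42 DAF. WRKY20 (Solyc12g006170.1) kept between 14.2 and 29.6 RPKM in all 14 libraries, while WRKY20 (Solyc07g065260.2) was called higher at 28 DAF (2.24 ± 0.32, adjusted p = 8.0e-04). WRKY57, which in Arabidopsis holds back jasmonate-induced senescence, went from 2.37 and 5.90 RPKM at 7 DAF to 22.8 and 22.7 at 49 DAF in AC and HG6-61. The 6 members that did not pass the filter had at most 15 reads in any library. A further 17 WRKY genes had fewer than 10 reads in every library and were not members, 6 of them under the symbol WRKY27. Neighbouring genes of the same symbol, such as WRKY41 (Solyc05g050330.2 and Solyc05g050340.2) and the copies of WRKY40 on chromosome 8, were not compared in sequence, and if alike their reads could be split or lost, since only uniquely mapped reads were counted, and whether strand was used in counting was not given in the sources used here.

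Other genes of the WRKY pathways were read from lists fixed by symbol. Of 16 tested kinases and partner proteins that act on WRKY proteins (of 18 by symbol), 3 were called higher at 28 DAF and none lower. Of all genes tested, 5.08% were called higher, and the share called lower at 28 DAF is not given here. The same numbers of the list held at 49 DAF, beside 8.83% of all genes higher and 13.8% lower. The median log2 fold change was 0.61 at 28 DAF and 0.49 at 49 DAF. MPK3 (Solyc06g005170.2), a kinase of immune signalling, was at 19.7, 14.3, 178, 204, 25.3, 28.9 and 69.7 RPKM in AC and at 7.03, 23.9, 147, 162, 55.7, 39.6 and 47.5 in HG6-61. It was high at 21 and 28 DAF in both cultivars, and it rose by 3.90 ± 0.54 at 28 DAF (adjusted p = 6.7e-04). SIB1 (Solyc01g096510.2), which binds WRKY33 in Arabidopsis, rose by 5.02 ± 1.18 at 28 DAF (adjusted p = 0.0098).

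Over all genes tested, 5.08% were called higher at 28 DAF, and 8.83% were called higher and 13.8% lower at 49 DAF. The share called lower at 28 DAF is not given here, so counts of falls at that stage have no comparison. Of 27 tested salicylic acid and defence genes (of 35), 8 were called higher and none lower at 28 DAF, and 10 higher and 2 lower at 49 DAF. They included the salicylic acid receptor gene NPR3 (Solyc07g044980.2; 2.19 ± 0.40 at 28 DAF, adjusted p = 0.0029) and its partner TGA2 (Solyc10g080770.1; 2.4 ± 0.33, adjusted p = 6.7e-04), a bZIP transcription factor, while most of the others were PR genes, which encode glucanases and chitinases. The 2 called lower at 49 DAF were SAG101, a partner of EDS1 in immunity, and 1 of the PR3 genes (Solyc03g116230.2). Summed RPKM of the 35 genes was 339 in AC and 203 in HG6-61 at 7 DAF, 6872 and 992 at 28 DAF, and 4896 and 7915 at 49 DAF. The sum at 28 DAF was thus far higher in AC, while the median over the 35 genes was 21.2 RPKM in AC and 14.8 in HG6-61. Genes that in Arabidopsis rise on touch or wounding gave 10 calls higher and 1 lower among 20 tested (of 26) at 28 DAF. At 49 DAF they gave 11 calls higher, beside 8.83% of all genes, and 4 lower, beside 13.8%. Their median log2 fold changes were 3.14 at 28 DAF and 4.06 at 49 DAF. ERF5 (Solyc05g052040.1), an ethylene response factor, rose by 6.66 ± 0.76 at 28 DAF (adjusted p = 2.3e-04). The called falls at 49 DAF were of LOX2 (Solyc12g011040.1), AOC3, OPR3 and TIFY10A (Solyc12g049400.1), genes of jasmonate synthesis and response, while LOX3 (Solyc03g122340.2), also of jasmonate synthesis, was called higher (4.25 ± 0.67, adjusted p = 5.6e-04). The touch and wounding list summed to 881 RPKM in AC and 784 in HG6-61 at 7 DAF, to 2304 and 1367 at 28 DAF, to 4246 and 2625 at 42 DAF and to 8129 and 1529 at 49 DAF, with 19 to 24 of the 26 genes having reads in each library. AC at 49 DAF had the highest sum for this list, as for the WRKY genes, and 2 CML38 genes held 3617 and 1811 RPKM of it. In HG6-61 the list was highest at 42 DAF, where the WRKY sum was at its lowest after 28 DAF. The median over the 26 genes was 36.2 RPKM in AC and 14.9 in HG6-61 at 49 DAF and 35.8 and 30.3 at 28 DAF. The part of these genes' levels in the WRKY values was not tested.

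**Figure D5:**
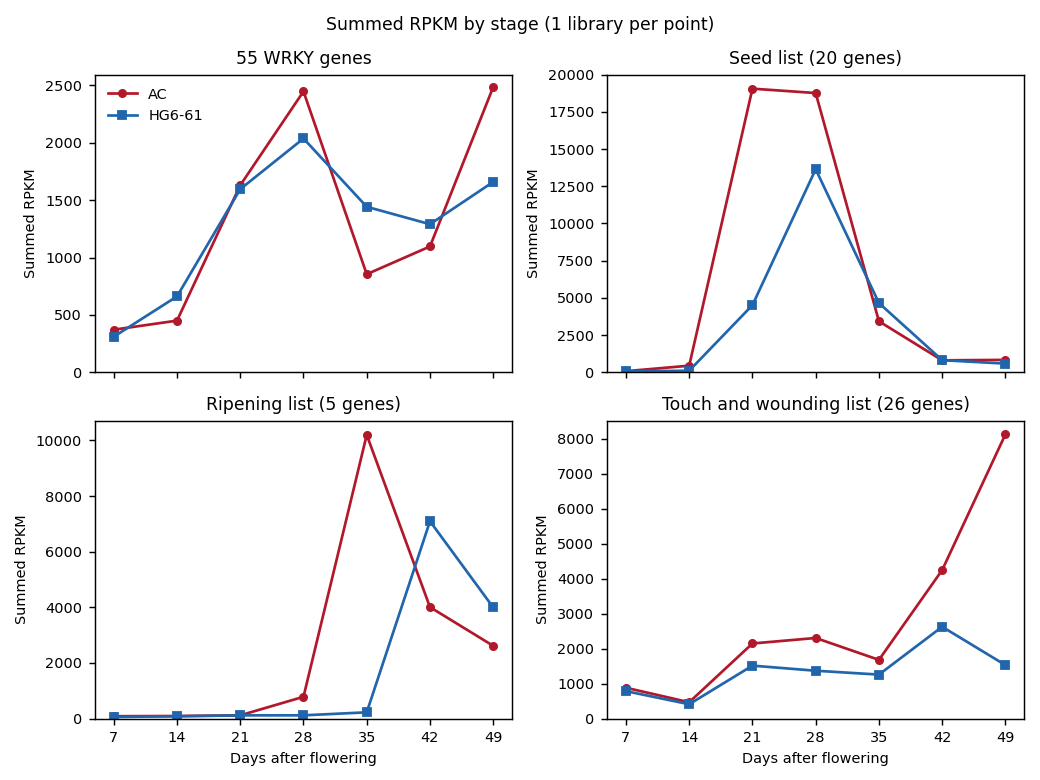
Summed RPKM against days after flowering for the 55 WRKY genes and the seed, ripening and touch and wounding lists, with AC as circles and HG6-61 as squares and 1 library per point. The WRKY sum is high at 28 DAF together with the seed list, is lowest after that in AC at 35 DAF (854) and in HG6-61 at 42 DAF (1290.2), and is high again in AC at 49 DAF, where the touch and wounding list is also at its highest (8129). In HG6-61 the touch and wounding list is highest at 42 DAF (2625) and falls to 1529 at 49 DAF, while the WRKY sum rises to 1659.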

How the data were processed

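Fruit pericarp RNA of the 7 stages was sequenced by the authors as 1 library per cultivar and stage, and reads were mapped to the tomato genome with TopHat (also named in the submitters' processing notes), keeping unique alignments. The deposited tables used were whole-number read counts per gene, not normalized, and RPKM values that the authors computed from them, whose value per read was 0.922 to 1.003 of that in AC at 7 DAF. Symbols are those of the best Arabidopsis match given by the authors. Here, edgeR 4.0.16 in R 4.3.3 was run on the deposited counts (filterByExpr, TMM, glmQLFit and glmQLFTest with stage and cultivar). The p-values were adjusted over all 18082 genes tested. The fit was first run on simulated counts with the same spread for every gene. That setting is simpler than the data, so the run gives no error rate for the calls here. Each SE was the absolute log2 fold change divided by the square root of the F statistic of the test, since edgeR reports none. DESeq2 1.42.0 was an alternative. The common biological coefficient of variation was 0.333. The p-values rest on how far the cultivars departed from a constant difference, pooled over the stages with 1 library of each cultivar per stage. They do not measure the spread between plants. Library totals were 1461817 to 6274456 reads, and intervals for ratios cover counting error only. Ratios of RPKM between single libraries were taken where at least 1 held 10 reads. Genes at or above 50 RPKM in a library, and those with the 3 largest called rises and falls between 7 and 49 DAF, were named, the others by group of highest stage with leading examples, and copies of a symbol were compared. Values singled out beyond this were chosen after being seen. The members and lists were chosen with earlier results of these data known. Sequences were not analysed here.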

Additional observations from a re-analysis of the deposited data

Results flagged for a closer look

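Between neighbouring stages, 6 WRKY genes moved at least 2-fold in opposite directions in the cultivars, with 10 reads or more at 1 of the stages in each cultivar. Each cultivar had 1 library per stage, so none of these differences was tested. The share of all genes that moved in opposite directions is not given here, so the 6 are listed as single cases. Moves of this size were common: from 28 to 35 DAF, 32.6% of all genes were at least 2-fold lower in AC and 9.14% higher in HG6-61. From 42 to 49 DAF, WRKY11 (Solyc08g006320.2) was at 46.3 and then 123 RPKM in AC and at 162 and then 40.5 in HG6-61, a difference of -3.40 between the log2 ratios (HG6-61 minus AC) on 116 to 471 reads. WRKY14 (Solyc02g021680.2) was at 6.93 and then 19.7 RPKM in AC and at 12.8 and then 5.40 in HG6-61, a difference of -2.76. From 28 to 35 DAF, WRKY50 (Solyc08g062490.2) was at 10.2 and 1.43 RPKM in AC and at 2.52 and 8.97 in HG6-61, a difference of 4.67 that rested on 5 to 34 reads. WRKY6 (Solyc07g051840.2) was at 4.82 and 1.80 RPKM in AC and at 2.88 and 6.55 in HG6-61, a difference of 2.61. From 7 to 14 DAF, WRKY4 (Solyc05g012770.2) was at 2.99 and 1.03 RPKM in AC and at 1.83 and 4.54 in HG6-61, a difference of 2.85, and WRKY15 (Solyc02g093050.2) at 3.58 and 1.56 in AC and 3.62 and 7.82 in HG6-61, a difference of 2.31, with 6 reads in AC at 14 DAF for each.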

How the results depend on the processing

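Each stage had 2 libraries, and low genes had few reads. Leaving out each library in turn gave 3 to 21 rises at 28 DAF (17 as reported), 7 to 22 at 49 DAF (19), 1 to 9 at 21 DAF (7), 2 to 13 at 35 DAF (8), 5 to 14 at 42 DAF (12), 1 to 2 falls at 49 DAF (1) and 14 to 28 calls across stages (24), and 0 in each case for 14 against 7 DAF, 49 against 42 DAF, 35 against 28 DAF and HG6-61 against AC. With DESeq2 there were 17 rises at 35 DAF, 2 falls at 49 DAF and 2 rises from 42 to 49 DAF. DESeq2 also gave 1 fall from 28 to 35 DAF and 37 calls across stages. Its rises outnumbered those of edgeR for 28 DAF (24 against 17) and for 49 DAF (25 against 19). The same held for 21 DAF (10 against 7) and for 42 DAF (15 against 12). Without a filter on low counts there were 17 rises at 35 DAF, 2 falls at 49 DAF and 1 rise from 42 to 49 DAF. A fit of only the libraries compared gave 17 rises at 21 DAF, 27 at 28 DAF and 4 from 42 to 49 DAF, and a model with stage only, without cultivar, gave 4 at 21 DAF. Without both 35 DAF libraries, an alternative chosen after seeing the data, there were 2 falls at 49 DAF. With at least 50 reads the difference at 35 DAF was 10 genes and the drop in AC 19, and with a 4-fold limit they were 12 and 17, and the drop in HG6-61 was 3. The minimum of 50 reads left fewer genes to compare. Shares of all genes under these limits are not given here, so the counts do not show whether the excess over all genes changed. The cause of these changes was not tested. For the 42 values of single genes, 713 of 796 alternatives kept direction and call, 33 gained a call, 50 lost one and 0 reversed.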
